A study of Homo sapiens with 6 samples.

Results

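The genes described here encode pyruvate dehydrogenase and the enzymes that switch it off and on. They were taken by symbol, as the rows PDHA1, PDHB, DLAT, DLD, PDK1, PDK2, PDK3, PDK4, PDP1 and PDP2. These are 10 of the 59050 entries of the expression table, and earlier results of these data were known when they were chosen. Bulk RNA-seq was made from HFF cells, human foreskin fibroblasts, in 3 libraries per group. All 6 libraries come from cells at about passage 18 that carried pLNC ER:RAS (G12V), an inducible H-RAS oncogene fused to a hormone receptor domain, introduced with virus packaged in HEK293T cells and selected with 200 µg/ml neomycin. One group received 100 nM 4-hydroxytamoxifen (4-OHT), which activates the fusion, and was harvested 1 week later as cells in oncogene-induced senescence. The other group is labelled DMSO, the usual solvent of 4-OHT. Cells without ER:RAS that were given 4-OHT are not among the samples used here, so an effect of 4-OHT itself and an effect of RAS cannot be told apart. The labels do not say whether the libraries of a group came from separate cultures, or whether the resistant cells were a pool or 1 clone, so the p-values rest on the spread between libraries alone, which may be technical.

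The pyruvate dehydrogenase complex stands in mitochondria between glycolysis and the citric acid cycle, where it turns pyruvate into acetyl-CoA. Its E1 enzyme decarboxylates pyruvate, its E2 enzyme passes the acetyl group to coenzyme A on a lipoyl arm, and its E3 enzyme reoxidises that arm. Pyruvate dehydrogenase kinases phosphorylate the E1 alpha subunit and switch the complex off, and the phosphatases remove the phosphate and switch it on. In senescence driven by oncogenic BRAF in human fibroblasts, the complex has been described as a control point of mitochondrial oxidation. Transcript levels do not measure this phosphorylation.

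Levels are in TPM, a transcript abundance scaled by gene length and library total, so levels of different genes can be compared. A mean is followed by the SD over the 3 libraries behind it. Differences between the groups are log2 fold changes of TPM + 1, with DMSO as the base, and are understated for genes at low levels. Adjusted p-values come from limma over the 15272 genes whose mean reached 1 TPM, and a gene is said to rise or fall only at an adjusted p under 0.05. Positions are from GENCODE 29 on GRCh38.

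The fibroblast identity was checked first, and the level of HRAS was looked at beside it. All 9 fibroblast markers were above 1 TPM, with a summed level of 19051 to 19463 TPM in 4-OHT and 20134 to 20738 in DMSO, most of it VIM. Within that sum COL1A1 (log2 fold change -0.19), COL1A2 (-0.62), COL3A1 (-0.91), LUM (-0.59), DCN (-1.04) and FAP (-1.01) fell. VIM (0.15), PDGFRB (0.71) and THY1 (0.42) rose. Markers of keratinocytes and epithelia summed to 0.579 to 0.779 TPM in 4-OHT and 1.45 to 1.64 in DMSO (KRT1 at 0), those of endothelium to 0.898 to 1.48 against 0.405 to 0.639, and those of melanocytes to 0.647 to 1.01 against 1.39 to 2.64 (TYR and DCT at 0). Those of immune cells summed to 59.7 to 67.2 TPM in 4-OHT and 60.1 to 90.5 in DMSO, most of it CD68, while CD14 rose from 2.14 ± 0.822 to 5.24 ± 1.7 TPM (adjusted p = 0.0187, but 0.0902 without a filter and 0.0507 to 0.0574 without 4-OHT replicate 1 or 2 or DMSO replicate 2). Those of muscle and pericytes summed to 21.5 to 28.9 TPM against 3.58 to 4.83, most of it RGS5, a symbol that 2 annotated genes share (1 coding, 1 antisense) and that the files do not separate. The part of all these markers in the results was not tested. HRAS, which takes up reads of the introduced and the cells' own gene, was at 1281 ± 51.1 TPM in 4-OHT and 935 ± 24.7 in DMSO (adjusted p = 9.99e-05). Cells of both groups carried the fusion, so this RNA level is no check of which libraries received 4-OHT. In bulk RNA, fewer cells of a type and less RNA per cell cannot be told apart.

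After 4-OHT the pyruvate dehydrogenase genes moved little and in different directions. DLAT, the E2 enzyme, and DLD, the E3 enzyme, rose by 1.23-fold and 1.12-fold, and PDHA1, the E1 alpha subunit, fell, its DMSO level being 1.17-fold the 4-OHT level. The other E1 subunit, PDHB, and all 5 kinases and phosphatases that could be tested did not pass the threshold. The fourth kinase, PDK4, was too low to test. Next to these small changes, PDHX, which fixes E3 to the E2 core and was listed among the accessory genes, rose 2.02-fold.

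Of the 9 members tested, 3 were called (33.3%), 2 of them higher and 1 lower. Among all 15272 genes, 49.6% were called, 19.8% higher and 29.9% lower. The groups did not overlap for those same 3 members (33.3%), against 59.0% of all genes tested, 23.8% with 4-OHT higher and 35.2% with 4-OHT lower. The median log2 fold change of the members was 0.03, against -0.09 over all genes, and the median absolute change was 0.16 against 0.33. The largest change of a member was 0.29, and 55.4% of the tested genes changed by more. Scaling the libraries by the median of ratios raised log2 fold changes by a median of 0.113, and split the calls over all genes into 4039 higher and 3579 lower, against 3018 and 4561 with the TPM as deposited. Quantile normalization gave 3650 higher and 3604 lower.

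**Figure D1:**
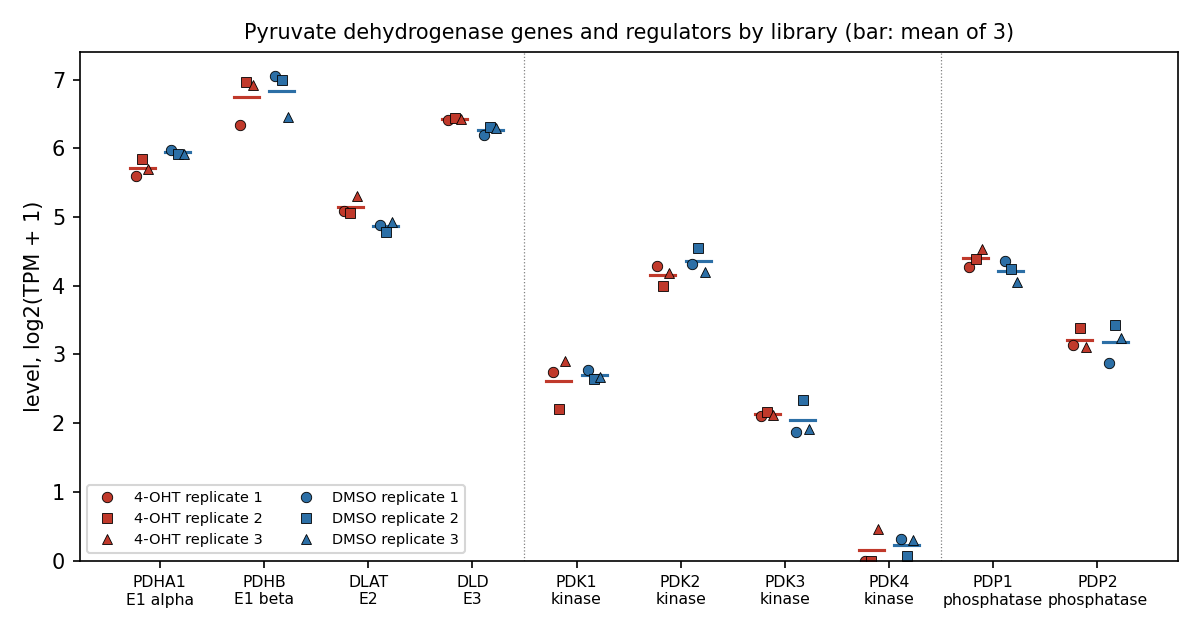
Level of each member in each of the 6 libraries, as log2(TPM + 1), with 4-OHT in red and DMSO in blue. Symbols mark the replicate number and bars the mean of 3 libraries. The catalytic genes lie above the kinases and phosphatases, PDHB spreads widely within both groups, and PDK4 lies near 0.

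The levels covered a wide range. In both groups PDHB was highest, with DLD, PDHA1 and DLAT after it, and PDK4 was lowest, with PDK3, PDK1 and PDP2 next above it. PDP1 and PDK2 lay between DLAT and PDP2 in both groups, and their ranges overlapped in each, PDP1 having the higher mean in 4-OHT and PDK2 in DMSO. PDHB and DLD overlapped in 4-OHT but not in DMSO. All other neighbours in this order had ranges that did not overlap.

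Among the E1 genes, PDHA1 (ENSG00000131828.13, chromosome X, 19343893 to 19361705), the subunit that the kinases phosphorylate, stood at 47.6, 56.4 and 51.0 TPM in the 4-OHT libraries and at 62.1, 59.5 and 59.6 in the DMSO libraries. All 4-OHT libraries were below all DMSO libraries, and 4-OHT replicate 2 came closest to them. PDHA1 fell from 60.4 ± 1.5 to 51.7 ± 4.46 TPM, a log2 fold change of -0.22 (SE 0.0703, adjusted p = 0.033). The call held in 5 of 14 alternative settings, and was lost with median-of-ratios scaling (-0.11, adjusted p = 0.232), with the replicate number as a block (0.0627), without a filter (0.0884), without a variance trend (0.0621) and without any 1 library other than 4-OHT replicate 2 (0.0661 to 0.0925).

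PDHB (ENSG00000168291.12, chromosome 3, 58427630 to 58433857), the E1 beta subunit that pairs with PDHA1, stood at 80.1, 124 and 119.6 TPM in 4-OHT and at 132, 127 and 86.3 in DMSO. One library of each group was low, 4-OHT replicate 1 and DMSO replicate 3, and the groups overlapped. The difference was -0.09 (95% interval -0.59 to 0.41, adjusted p = 0.752). Its sign turned without 4-OHT replicate 1 (0.11), without DMSO replicate 1 (0.02) and with median-of-ratios scaling (0.03). The within-group SD of PDHB was 0.341 on the log2 scale, against a median of 0.0723 over 2320 genes of like level, 95.5% of which had a smaller SD. The interval therefore allows a rise or a fall of PDHB larger than the change of any other member.

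DLAT (ENSG00000150768.15, chromosome 11, 112024814 to 112064390), the acetyltransferase that forms the core of the complex, stood at 33, 32.4 and 38.6 TPM in 4-OHT and at 28.5, 26.6 and 29.4 in DMSO. All 4-OHT libraries were above all DMSO libraries, and 4-OHT replicate 3 was the highest. DLAT rose from 28.2 ± 1.45 to 34.7 ± 3.42 TPM (log2 fold change of 0.29 with an SE of 0.0843, adjusted p = 0.0257). The call held in 10 of 14 alternative settings, and was lost without 4-OHT replicate 3 (0.21, adjusted p = 0.0615), without DMSO replicate 1 (0.30, 0.0559) or replicate 2 (0.25, 0.0799) and without a filter (0.29, 0.0751).

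DLD (ENSG00000091140.13, chromosome 7, 107890970 to 107931730), the dihydrolipoamide dehydrogenase that several mitochondrial complexes share, stood at 83.8, 86.0 and 85.2 TPM in 4-OHT and at 72.2, 78.0 and 77.5 in DMSO. The groups did not overlap, and the 4-OHT libraries lay close together. DLD rose from 75.9 ± 3.21 to 85.0 ± 1.12 TPM (log2 fold change of 0.16 with an SE of 0.0487, adjusted p = 0.0279). The call held in 8 of 14 alternative settings. It was lost with quantile normalization (0.13, adjusted p = 0.0505), without a variance trend (0.0701), and without 4-OHT replicate 1, 2 or 3 or DMSO replicate 1 (0.054 to 0.08). Exons of DLD overlap exons of the laminin gene LAMB1 on the other strand, which stood at 215 against 346 TPM. Whether the counting used strand is not given in the sources used here, so the value of DLD is uncertain to that extent.

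Ratios of the called catalytic genes restate those calls, since DLAT and DLD rose and PDHA1 fell, but a scaling factor per library does not alter them. The ratio of DLAT to PDHA1 was 0.694, 0.575 and 0.757 in the 4-OHT libraries and 0.459, 0.447 and 0.493 in the DMSO libraries. The ratio of DLD to PDHA1 was 1.76, 1.52 and 1.67 in 4-OHT and 1.16, 1.31 and 1.30 in DMSO. Every 4-OHT library had more E2 and more E3 transcript per E1 alpha transcript than any DMSO library. The ratio of PDHA1 to PDHB overlapped between the groups (0.491 ± 0.0897 against 0.544 ± 0.127). The summed level of the 4 catalytic genes was 279 ± 30.3 TPM in 4-OHT and 279 ± 23.1 in DMSO. These ratios and sums were given no test.

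**Figure D2:**
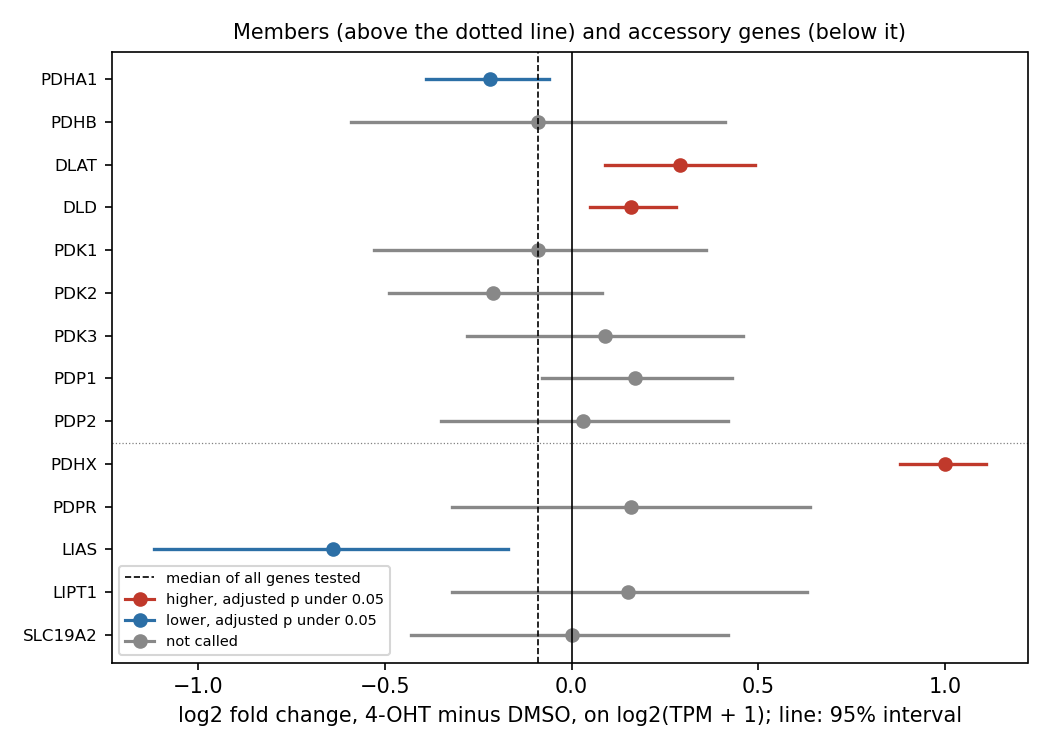
Log2 fold change of TPM + 1, 4-OHT minus DMSO, with its 95% interval, for the 9 members tested and, below the dotted line, 5 tested accessory genes. Red and blue mark genes called higher and lower, grey marks genes not called, and the dashed line is the median of all genes tested. PDHX lies apart from the members, at 1.00, while no member lies beyond 0.29.

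The accessory list holds 10 other subunits and cofactor suppliers of the complex, and 7 of them were tested: 1 rose, 1 fell and 5 were not called (28.6% called, against 49.6% of all genes tested), with a median log2 fold change of 0.16. With median-of-ratios scaling 1 was higher and 0 lower, with a median of 0.27, and with quantile normalization 2 were higher and 0 lower, with a median of 0.38. PDHX (ENSG00000110435.11, chromosome 11, 34915829 to 35020591), the E3-binding protein, stood at 85.7, 81.0 and 81.3 TPM in 4-OHT and at 41.2, 39.9 and 41.6 in DMSO. The libraries of each group lay close together and far from those of the other group. PDHX rose from 40.9 ± 0.903 to 82.7 ± 2.6 TPM (log2 fold change of 1.00 with an SE of 0.0494, adjusted p = 5.82e-06), and was called in 14 of 14 alternative settings, with log2 fold changes of 0.97 to 1.12. Exons of PDHX overlap those of APIP on the other strand, which stood at 58.1 against 56.4 TPM. With the strand setting unknown, the PDHX level and the ratios made from it are uncertain to that extent.

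PDHX binds E3 to the core that DLAT builds, and its level relative to both partners was set apart between the groups. There were 2.6, 2.5 and 2.11 PDHX transcripts per DLAT transcript in 4-OHT, and 1.44, 1.5 and 1.42 in DMSO. Per DLD transcript there were 1.02, 0.942 and 0.955 in 4-OHT, and 0.571, 0.512 and 0.537 in DMSO. Every 4-OHT library was above every DMSO library in both ratios. That restates the PDHX call, since PDHX rose by more than DLAT and DLD, and the ratios were given no test.

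LIAS, the lipoate synthase that makes the lipoyl arm of E2, stood at 5.18, 5.12 and 8.01 TPM in 4-OHT and at 10, 12.1 and 7.95 in DMSO. The groups overlapped through 4-OHT replicate 3 and DMSO replicate 3. LIAS fell by 0.64 on the log2 scale (SE 0.201, adjusted p = 0.0328), a call that held in 6 of 14 alternative settings. It was lost with the replicate block (adjusted p = 0.075), with median-of-ratios scaling (0.06), with quantile normalization (0.133), without a filter (0.128), and without 4-OHT replicate 1 or 2 or DMSO replicate 1 or 2 (0.0818 to 0.1). LIAS exons overlap RPL9 on the other strand, which at 830 against 1110.4 TPM is far more abundant, so the LIAS value is uncertain. LIPT1, which transfers lipoate, the thiamine carrier SLC19A2, and PDPR, a regulatory subunit of the phosphatase, were not called (log2 fold changes 0.00 to 0.16, adjusted p = 0.551 to 0.984). The testis form of E1 alpha, PDHA2, was listed at 0 in all 6 libraries.

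Of the 6 kinases and phosphatases, 5 were tested, 0 were called by limma, against 49.6% of all genes tested, and 0 had groups that did not overlap, against 59.0%. None of the 5 had an unadjusted p under 0.05, and none was called in any alternative setting run for it. A p that misses the threshold does not show equal levels, and the 95% intervals below give the changes that these libraries allow.

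PDK2 (ENSG00000005882.11, chromosome 17, 50094737 to 50112152), a kinase found in most tissues, was the main kinase transcript, at 18.5, 14.9 and 17.1 TPM in 4-OHT and 18.9, 22.5 and 17.4 in DMSO. The groups overlapped, with the lowest library in 4-OHT and the highest in DMSO. The means were 16.8 ± 1.82 and 19.6 ± 2.63 TPM, a difference of -0.21 (95% interval -0.49 to 0.08, adjusted p = 0.194). PDK2 supplied 62.6% to 67.7% of the summed kinase transcript level in 4-OHT and 67.4% to 70.6% in DMSO. Exons of PDK2 overlap those of SAMD14 on the other strand, which stood at 11.4 TPM in 4-OHT and 11.1 in DMSO. With the strand setting unknown, the PDK2 level, these shares and the kinase sum are uncertain to that extent.

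PDK1 (ENSG00000152256.13, chromosome 2, 172555373 to 172608669), known as a target of the hypoxia-inducible factor HIF-1, stood at 5.70, 3.61 and 6.48 TPM in 4-OHT and at 5.86, 5.27 and 5.40 in DMSO. The DMSO libraries lay inside the range of the 4-OHT libraries, which held both the lowest and the highest value. The difference was -0.09 (95% interval -0.53 to 0.36, adjusted p = 0.734). It turned to 0.12 without 4-OHT replicate 2, the lowest library, to 0.17 with quantile normalization and to 0.02 with median-of-ratios scaling. PDK1 exons overlap those of AC078883.1 on the other strand, which stood at 1.7 TPM in 4-OHT and 0.602 in DMSO, so the PDK1 value is uncertain as well.

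PDK3 (ENSG00000067992.13, chromosome X, 24465221 to 24541862), the kinase least held back by pyruvate, stood at 3.28, 3.49 and 3.36 TPM in 4-OHT and at 2.67, 4.03 and 2.77 in DMSO. The 4-OHT libraries lay inside the range of the DMSO libraries. The difference was 0.09 (95% interval -0.28 to 0.46, adjusted p = 0.669). PDK4 (ENSG00000004799.7, chromosome 7, 95583499 to 95596491), the kinase induced by fasting, was listed at 0 in 4-OHT replicates 1 and 2 and at 0.38 TPM in replicate 3. In DMSO it stood at 0.244, 0.048 and 0.232 TPM. With a mean of 0.151 TPM it was below the minimum of 1 TPM, and no fold was computed.

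PDP1 (ENSG00000164951.15, chromosome 8, 93857807 to 93926066), the calcium-sensitive phosphatase, stood at 18.3, 19.9 and 22.2 TPM in 4-OHT and at 19.6, 17.9 and 15.6 in DMSO. The groups overlapped, with the highest library in 4-OHT and the lowest in DMSO. The means were 20.1 ± 2.01 and 17.7 ± 2.0 TPM, a difference of 0.17 (95% interval -0.08 to 0.43, adjusted p = 0.222). PDP2 (ENSG00000172840.6, chromosome 16, 66878589 to 66895754), the other phosphatase, stood at 7.77, 9.46 and 7.62 TPM in 4-OHT and at 6.31, 9.76 and 8.40 in DMSO. The 4-OHT libraries lay inside the range of the DMSO libraries, and the difference was 0.03 (95% interval -0.35 to 0.42, adjusted p = 0.885). Its sign turned without 4-OHT replicate 2 (-0.06) and without DMSO replicate 1 (-0.12).

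Summed over the 4 kinases, the level was 27.5, 22 and 27.3 TPM in 4-OHT and 27.7, 31.9 and 25.8 in DMSO. Summed over both phosphatases it was 26.0, 29.3 and 29.9 TPM in 4-OHT and 25.9, 27.7 and 24.0 in DMSO. Both sums overlapped between the groups. The ratio of kinase to phosphatase sum was 1.06, 0.75 and 0.914 in 4-OHT and 1.07, 1.15 and 1.07 in DMSO. These ratios did not overlap, but 4-OHT replicate 1 lay next to DMSO replicates 1 and 3. The mean log2 ratio differed by -0.288, and by -0.158 without 4-OHT replicate 2. No test was made of this sum over members.

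**Figure D3:**
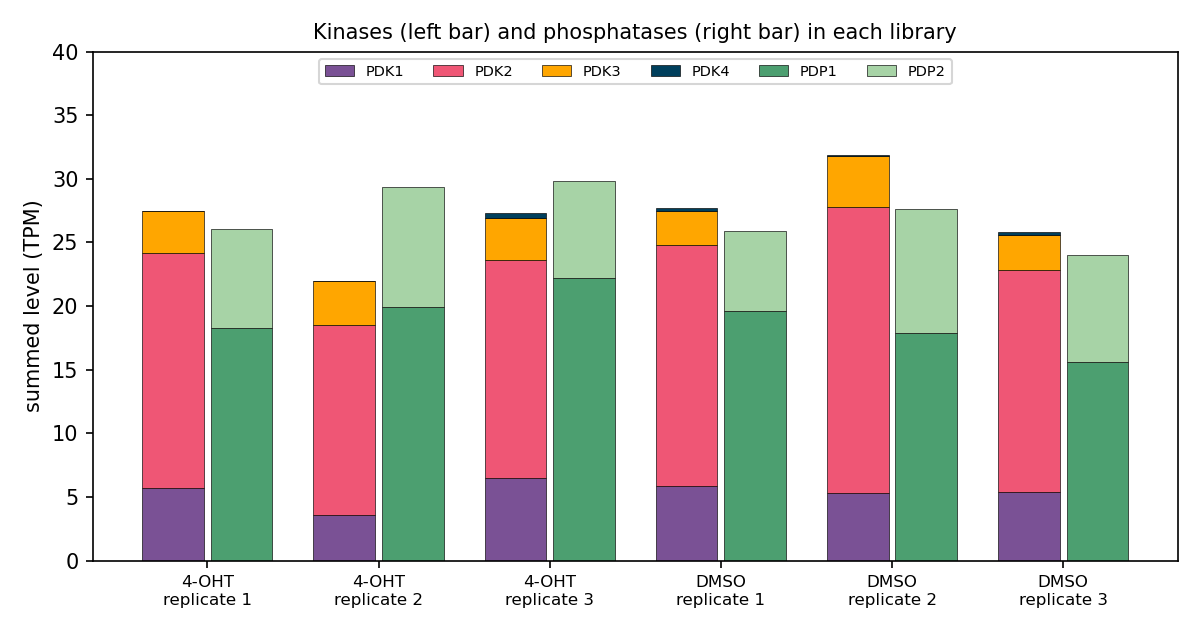
Summed level in TPM of the 4 kinases (left bar) and both phosphatases (right bar) in each library, stacked by gene, on an axis that starts at 0. PDK2 is the largest kinase share and PDP1 the larger phosphatase share in every library, and 4-OHT replicate 2 has the lowest kinase sum, 22 TPM.

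PDK1 is the member best known as a target of hypoxia-inducible factors, whose core site is read as ACGTG, or CACGT on the other strand. Windows of the 250 bases before each RefSeq transcript start (GRCh38.p14) were used for 9 members (all but PDP1), in 13 windows. Of these members, 6 held the core in a window. Counted by window, 6 of the 13 held it and 4 held it 2 or more times, against 18.5% and 7.52% of 35116 such windows in the genome. The core contains CG, and the member windows that held it were 62.0% to 79.6% G and C. The shares over all windows were not matched for this. A 30-base stretch is given for each of the 6, 5′ to 3′ on the gene's strand with the matches in capitals, and PDHB has a further match outside its stretch. A CACGTG is read on both strands and counts as 2 overlapping matches, so PDK2 reaches 2 through a single such site. The stretches of DLAT, PDK1, PDK2 and PDP2 lie inside the GENCODE gene positions given above, not before them.
PDHB, chr3:58434051-58434080, minus strand: acaccgaccaggCACGTGtgcccagcgtgc
DLAT, chr11:112025360-112025389, plus strand: ccattttacgacaACGTGcggctgtgcggt
PDK1, chr2:172556060-172556089, plus strand: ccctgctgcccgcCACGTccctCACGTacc
PDK2, chr17:50095210-50095239, plus strand: cccgggggaagcCACGTGccggggcggaag
PDK3, chrX:24465212-24465241, plus strand: tcgcgcgccgcgtACGTGcagcaaccgact
PDP2, chr16:66880295-66880324, plus strand: gcCACGTagctggcgatctcaggCACGTGa

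Of the 6, only DLAT was called in 4-OHT, against 49.6% of all genes tested. PDHA1, DLD and PDK4 had windows without these letters, and PDHA1 and DLD were called. Whether a match goes with a call was not tested, and these members are too few to show it. The printed stretch of PDK1 holds 2 separate matches 4 bases apart, while its other window, chr2:172555123-172555372, holds 0. The other windows of PDK2 also hold 0. The level of PDK1 did not pass the threshold. A match is a description of the letters and not a shown binding site.

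Other direct targets of hypoxia-inducible factors were compared with PDK1. Of 12 listed, 11 were tested: 6 rose, 1 fell and 4 were not called (63.6% called, against 49.6% of all genes tested), with a median log2 fold change of 0.41. PFKFB4, a glycolytic regulator, rose from 12.8 ± 2.26 to 53.6 ± 2.5 TPM (log2 fold change of 2.0 with an SE of 0.124, adjusted p = 1.62e-05). VEGFA, a vascular growth factor, rose from 28.3 ± 2.0 to 42.4 ± 2.44 TPM (0.57, adjusted p = 0.000746). SLC2A1, the glucose transporter GLUT1, fell from 105 ± 7.91 to 52.7 ± 3.97 TPM (-0.99, adjusted p = 5.1e-05). The list thus held genes that rose and 1 that fell, while PDK1 was not called.

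Among 17 factors and oxygen sensors known to act on the kinase genes, 15 were tested: 5 rose, 2 fell and 8 were not called (46.7% called, against 49.6% of all genes tested). The median was 0.07, and 0.14 and 0.19 with median-of-ratios scaling and quantile normalization. PPARG, a nuclear receptor that acts on PDK4 in fat cells, fell from 30.7, 26.9 and 24.6 TPM in DMSO to 1.59, 1.15 and 0.872 in 4-OHT (log2 fold change -3.70, SE 0.149, adjusted p = 2.3e-06). EPAS1, the factor HIF-2 alpha, fell from 193, 195 and 184 TPM to 22.5, 24.4 and 23.2 (-2.98, SE 0.0522, adjusted p = 8.76e-08). All libraries of the 2 groups were far apart for both genes. The co-activator PPARGC1B rose from 0.467 ± 0.316 to 3.1 ± 0.953 TPM (1.48, adjusted p = 0.00193). HIF1A, named after its values were seen, rose from 204 ± 5.65 to 279.7 ± 6.39 TPM (0.46, adjusted p = 8.48e-05).

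The genes of fat oxidation and the PPAR and FOXO targets that are induced together with PDK4 on fasting numbered 15, of which 13 were tested: 6 rose, 6 fell and 1 was not called (92.3% called, against 49.6% of all genes tested). The median was 0.13, and 0.25 with median-of-ratios scaling. ANGPTL4, an inhibitor of lipoprotein lipase, rose from 0.729 ± 0.373 to 15.3 ± 2.3 TPM (log2 fold change 3.25, adjusted p = 1.09e-05). CD36, a fatty acid carrier, fell from 11.2 ± 0.999 to 1.62 ± 0.161 TPM (-2.21, adjusted p = 8.33e-06), and TXNIP, which limits glucose uptake, fell from 119 ± 5.13 to 43.4 ± 1.28 (-1.43, adjusted p = 1.47e-06). PDK4 itself stayed below 0.4 TPM in all libraries.

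**Figure D4:**
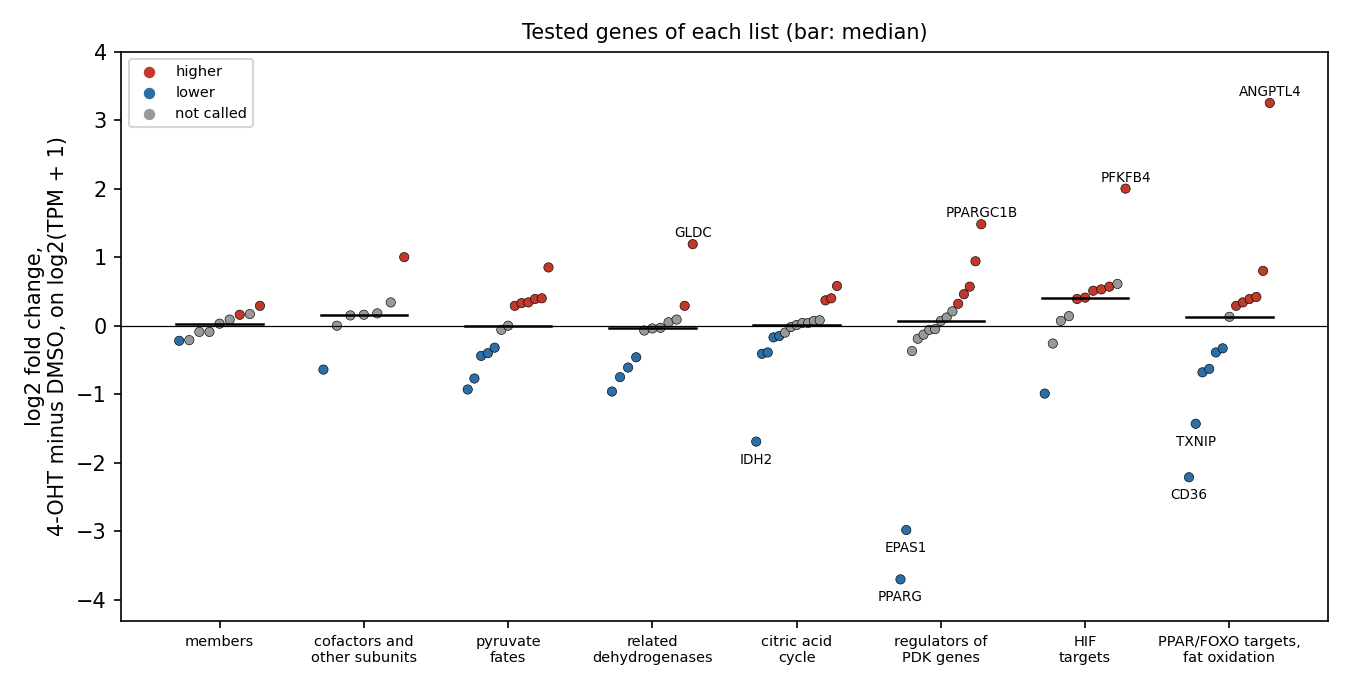
Log2 fold change, 4-OHT minus DMSO, of every tested member and of every tested gene of 7 pathway lists, each point a gene and each bar a list median. Red and blue mark genes called higher and lower and grey marks genes not called. The members lie within 0.29 of 0, while PPARG, EPAS1, CD36, PFKFB4 and ANGPTL4 lie beyond 1.9 in either direction.

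Pyruvate has other fates than the complex, and genes of its supply, transport and use moved both ways: of 14 listed, 13 were tested, 6 rose, 5 fell and 2 were not called. That is 84.6% called, against 49.6% of all genes tested. The median was 0.00, and 0.12 and 0.13 with median-of-ratios scaling and quantile normalization. SLC16A1, the lactate and pyruvate carrier MCT1, rose from 45.0 ± 2.16 to 81.9 ± 2.8 TPM (log2 fold change of 0.85 with an SE of 0.0561, adjusted p = 2.19e-05). PC, pyruvate carboxylase, which makes oxaloacetate, fell from 9.55 ± 1.32 to 4.68 ± 1.56 TPM (-0.93, adjusted p = 0.0115), and ME2, a mitochondrial malic enzyme, fell from 22.5 ± 2.82 to 13 ± 3.37 (-0.77, adjusted p = 0.00923). Without a filter on low values, PC (adjusted p = 0.0626) and ME2 (0.0549) were not called. PKM, the pyruvate kinase that makes pyruvate, stood at 2944 ± 50.0 against 2939 ± 20.6 TPM (0.00, 95% interval -0.06 to 0.07).

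The paired subunits of the pyruvate carrier and of lactate dehydrogenase, named after their values were seen, moved apart. MPC1, a subunit of the mitochondrial pyruvate carrier, fell from 43.2 ± 1.89 to 31.7 ± 2.79 TPM (log2 fold change -0.44, adjusted p = 0.00291), while its partner MPC2 rose from 45.6 ± 2.58 to 55.7 ± 1.19 (0.29, adjusted p = 0.00578). MPC2 exons overlap DCAF6 on the other strand, which stood at 63.1 against 64.2 TPM, so the MPC2 value is uncertain as well. LDHA, which favours lactate, fell from 1170.2 ± 82.5 to 939 ± 26.4 TPM (-0.32, adjusted p = 0.00249), and LDHB rose from 993 ± 122 to 1306 ± 31.7 (0.40, adjusted p = 0.00625). The ratio of LDHA to LDHB was 0.71, 0.723 and 0.723 in 4-OHT and 1.31, 1.26 and 1.00 in DMSO. The ratio of MPC1 to MPC2 was 0.562, 0.633 and 0.514 in 4-OHT and 1.02, 0.88 and 0.943 in DMSO. Neither ratio overlapped between the groups. That restates the calls, since the subunits of each pair moved in opposite directions without overlap, and the ratios were given no test. PKM, LDHA and LDHB have processed pseudogenes, and how reads were divided among copies is not known here.

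The complexes most like pyruvate dehydrogenase, which use the same E3 enzyme or a related kinase, were also mixed. Of 12 listed genes 11 were tested: 2 rose, 4 fell and 5 were not called (54.5% called, against 49.6% of all genes tested), with a median of -0.04 (0.06 with median-of-ratios scaling). GLDC, of the glycine cleavage system, rose from 0.73 ± 0.389 to 2.93 ± 0.712 TPM (log2 fold change 1.19, adjusted p = 0.00418), and AMT of the same system fell from 2.42 ± 0.486 to 1.03 ± 0.16 (-0.75, adjusted p = 0.00934). DHTKD1, a relative of the 2-oxoglutarate dehydrogenase E1, fell from 12.4 ± 1.15 to 5.87 ± 0.192 TPM (-0.96, adjusted p = 0.000194). BCKDK, the branched-chain relative of the pyruvate dehydrogenase kinases, was not called (-0.03, 95% interval -0.27 to 0.20), and PPM1K, the phosphatase that opposes it, named after its values were seen, fell from 9.99 ± 0.796 to 7.0 ± 1.01 TPM (-0.46, adjusted p = 0.017). That call was lost with quantile normalization (-0.24, adjusted p = 0.139), without a filter (0.053) and without DMSO replicate 3 (0.0581).

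Downstream, all 15 listed genes of the citric acid cycle were tested: 3 rose, 5 fell and 7 were not called (53.3% called, against 49.6% of all genes tested), with a median of 0.01. Median-of-ratios scaling gave 5 higher, 2 lower and a median of 0.13, and with quantile normalization the median was -0.02. The number called fell from 8 to 4 without 4-OHT replicate 3 or DMSO replicate 2, and to 5 without DMSO replicate 1 or without a variance trend. IDH2, a mitochondrial isocitrate dehydrogenase, fell from 66.2, 65.5 and 65.0 TPM in DMSO to 19.5, 19.6 and 19.7 in 4-OHT (log2 fold change -1.69, SE 0.05, adjusted p = 6.1e-07). The spread within each group was far smaller than the distance between them. SDHB, a subunit of succinate dehydrogenase, rose from 106 ± 1.93 to 159 ± 8.71 TPM (0.58, adjusted p = 9.1e-05). SUCLG2, a subunit of succinyl-CoA ligase, fell from 78.8 ± 2.32 to 59.9 ± 12.7 TPM (-0.41, adjusted p = 0.047), a call that held in 6 of 14 alternative settings (adjusted p = 0.0101 to 0.178) and only 1 of 6 fits that leave out a library.

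**Figure D5:**
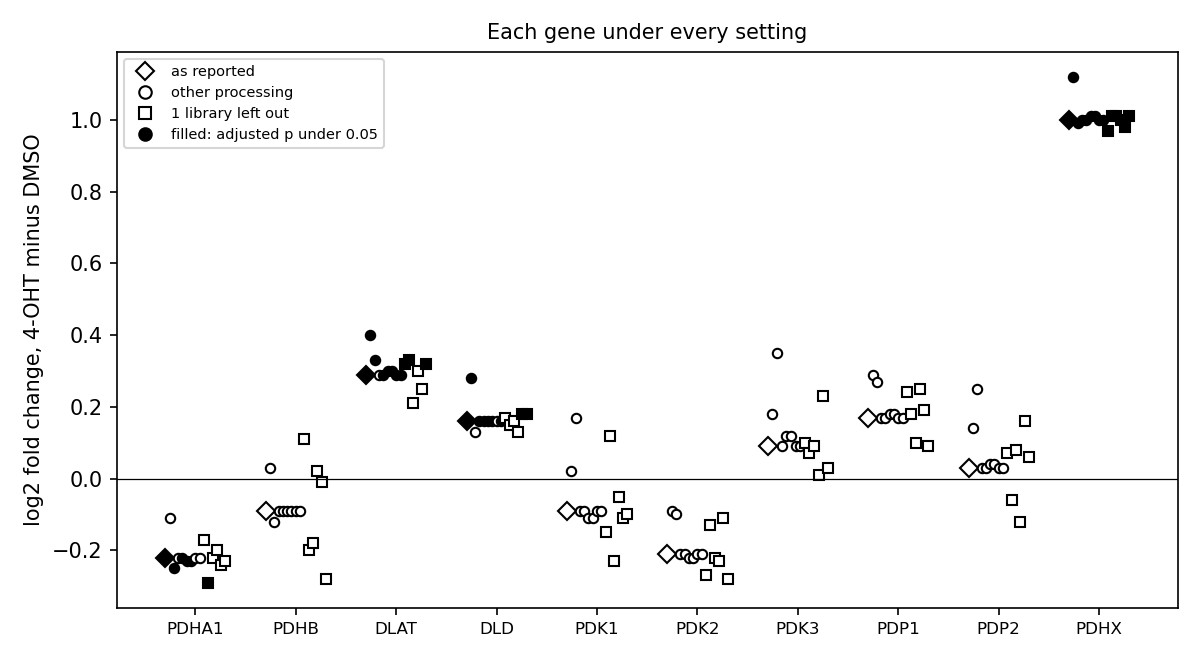
Log2 fold change, 4-OHT minus DMSO, of the 9 tested members and PDHX as reported (diamond), under other processing (circles) and with 1 library left out (squares), filled where the adjusted p was under 0.05. PDHX is filled throughout, DLAT, DLD and PDHA1 are filled in part, and the points of PDHB, PDK1 and PDP2 lie on both sides of 0.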

How the data were processed

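The authors deposited TPM for 6 libraries, each summing to between 998367 and 998843, and 1 TPM value below 0 in DMSO replicate 3, as deposited by them, was set to 0. The submitters' processing notes name GRCh38, STAR, StringTie and Trim Galore 0.6.6. No source used here gives the annotation, the strand setting or the read depth, and detection limits were not computed. The KAPA RNA HyperPrep kit was used on 1 µg of total RNA, per the labels' protocols.

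Entries averaging 1 TPM or more were compared by limma 3.58.1 (R 4.3.3) on log2(TPM + 1), with eBayes and a variance trend, 2-sided, with Benjamini-Hochberg adjustment over all 15272 genes tested, threshold 0.05. Named genes are the members, HRAS, and of each of 7 lists (95 genes) at most 3 called genes with the largest absolute change, and every other gene, uncalled list genes and cell type markers included, was named after its values were seen. A part of that rule for genes most like a called kinase or phosphatase named none. Some list genes are counted but not reported here by name. The members and lists were chosen with earlier results of these data known. Alternatives were 2 other scalings between libraries, pseudocounts of 0.1 and 0.01, a minimum of 5 TPM, no filter, no variance trend, the replicate number as a block, and each library left out. Promoter windows come from RefSeq. Python 3.11.15 was used for tables and plots. At 95% identity over 200 bases, 0 other genes shared a transcript stretch with the members, PDHX or LIAS. In the table, 27 symbols had been turned into dates.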

Additional observations from a re-analysis of the deposited data

How the results depend on the processing

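The number of members called, 3, became 1 without a filter on low values and 1 without a variance trend, and ranged from 0 to 2 with a library left out. It was 0 without 4-OHT replicate 3 or DMSO replicate 1. Signs turned in 8 cases, all of them uncalled members. With median-of-ratios scaling the log2 fold change was 0.03 for PDHB and 0.02 for PDK1, and with quantile normalization it was 0.17 for PDK1. With a library left out it ranged from -0.28 to 0.11 for PDHB, from -0.23 to 0.12 for PDK1 and from -0.12 to 0.16 for PDP2. The cause was not tested, except that fits with a library left out have fewer samples. In the other fits for members, 98 values kept their direction and side of the threshold and 19 lost the call. For the other called genes that were rerun, 441 kept both and 31 lost the call. Uncalled genes other than members, and the markers COL1A1, COL1A2, LUM, VIM and RGS5, were not rerun one by one. With the replicate number as a block, 7065 genes and 2 members (DLAT and DLD) were called, against 7579 and 3 without it. Deviations of same-numbered libraries correlated at 0.0475, 0.00549 and 0.00664, so the numbers were not taken to pair the libraries, and not every library correlated best with its own number. PDK3 gave no value under the 5 TPM minimum. Read depth is unknown for TPM, so how depth limits PDK4, PDK3 and PDK1 cannot be given.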

Other observations

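Some genes around the complex had single libraries far from the rest of their group, named here after their values were seen. GCSH, the lipoyl carrier of the glycine cleavage system, which has processed pseudogenes that make its value uncertain, stood at 26.7, 47.6 and 47.5 TPM in 4-OHT and at 23.6, 46.9 and 48.8 in DMSO, low in replicate 1 of both groups (log2 fold change 0.05, 95% interval -0.71 to 0.82). EGLN1, the oxygen sensor PHD2, stood at 33.1, 32.6 and 32.2 TPM in 4-OHT and at 12.6, 27.2 and 13.2 in DMSO, where replicate 2 was high (0.94, adjusted p = 0.022). The EGLN1 call was lost without a filter (adjusted p = 0.112) and without any 1 library other than DMSO replicate 2 (0.0539 to 0.0724). SDHC, a membrane anchor of succinate dehydrogenase, stood at 48.5, 47.9 and 78.3 TPM in 4-OHT and at 47.7, 55.8 and 63.4 in DMSO, and the groups overlapped. With PDHB, these genes show library differences that the group labels do not account for.

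PPARGC1A, the co-activator PGC-1 alpha, was below the minimum for testing, at 0.583, 0.246 and 0.237 TPM in 4-OHT and 0.938, 1.52 and 2.15 in DMSO, so that its levels lay in the opposite order to those of PPARGC1B, at 4.17, 2.35 and 2.78 against 0.349, 0.227 and 0.825.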
